A study of Homo sapiens with 96 samples.

Results

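HaCaT-Mock cells are HaCaT keratinocytes, a spontaneously immortalized human skin line, that carry an empty control vector. The lines of the study were made with the lentiviral vector pLenti-CMV puro and selected with puromycin, and whether a line is a pool or a single clone is not stated in the sources used here. The comparison described here is of gefitinib, at 100 nM for a day, against PBS in that line. Its members are the arrays whose labels give HaCaT-Mock, no siRNA and either gefitinib (3 arrays) or the PBS control (3 arrays), so 6 of the 96 Affymetrix U133 Plus 2.0 arrays of the series. The gefitinib arrays came 1 each from the batches called J, E and M in the labels. The PBS arrays came 2 from batch J and 1 from batch E, and batch M held no PBS array of this line. Whether each replicate came from its own culture is not given in the labels. The p-values thus reflect only how far the deposited arrays of a group lie from each other, which may be technical variation. Set beside them are HaCaT-Mock cells given cetuximab (3 arrays), afatinib (3 arrays), siRNA against EGFR (3 arrays) or scramble siRNA (3 arrays), with 1 array each of scramble siRNA with gefitinib and scramble siRNA with PBS. Also used are 3 other lines with gefitinib or PBS, which overexpress EGFR (HaCaT-EGFR) or carry an activated PIK3CA (HaCaT-PIK3CA) or HRAS (HaCaT-HRAS, 3 arrays each).

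The epidermal growth factor receptor (EGFR) is the main growth factor receptor of epidermal keratinocytes, which make several of its ligands themselves. When a ligand binds, the receptor's tyrosine kinase switches on the RAS, RAF, MEK and ERK cascade and the PI3K and AKT branch, which keep basal keratinocytes dividing. Gefitinib is a small molecule that occupies the ATP pocket of the EGFR kinase. In skin, loss of EGFR signaling is known for moving keratinocytes out of the cell cycle and toward differentiation, and for a rash in treated patients.

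All values are log2 signals, so a difference of 1 is a doubling, and they compare a gene between arrays and not with other genes. A limma model over the 89 HaCaT arrays, with group and batch as terms, was fitted to 19775 genes, and a gene was called where its Benjamini-Hochberg adjusted p over all of them was under 0.05. Array medians over the 6 arrays ran from 5.087 to 5.134. All 8 keratinocyte markers measured were high on every array, at 9.36 or more, whereas 16 of 18 markers of other cell types lay below the median of all genes (6.129) on every one of the 6 arrays. Their summed linear signal, leaving out the epithelial marker EPCAM, was 605 to 662 on the gefitinib arrays and 570 to 592 on the PBS arrays. The batch M array stood apart in the 3′ to 5′ signal of the ACTB control probe sets, with a log2 difference of 0.27, against 1.30 to 1.43 on the other 5 arrays. The batch M arrays of this line with cetuximab (0.266) and afatinib (0.376) were low too. Without the batch M gefitinib array 4052 genes were called in all, against 4768 with it. Leaving out any 1 of the 6 arrays gave 3840 to 4158.

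Gefitinib moved the expression of a large part of the transcriptome. Of the 19775 genes, 2454 were higher with gefitinib than with PBS (12.4%) and 2314 were lower (11.7%), and 6289 had an unadjusted p under 0.05. Most of the differences were small: 262 of the higher and 111 of the lower genes differed by at least 1 on the log2 scale. On all 3 gefitinib arrays above all 3 PBS arrays lay 2788 genes (14.1%), and below all of them 2736 (13.8%). The first principal component of the 6 arrays, 54.5% of their variance, separated gefitinib from PBS, and the second, 23.3%, separated the batch E arrays from the other 4. Within the batches that held both treatments, 4766 of the 4768 called genes differed the same way in batch J and 4759 in batch E. The same arrays made the calls, so high counts follow from the calling itself and are no separate evidence.

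**Figure D1:**
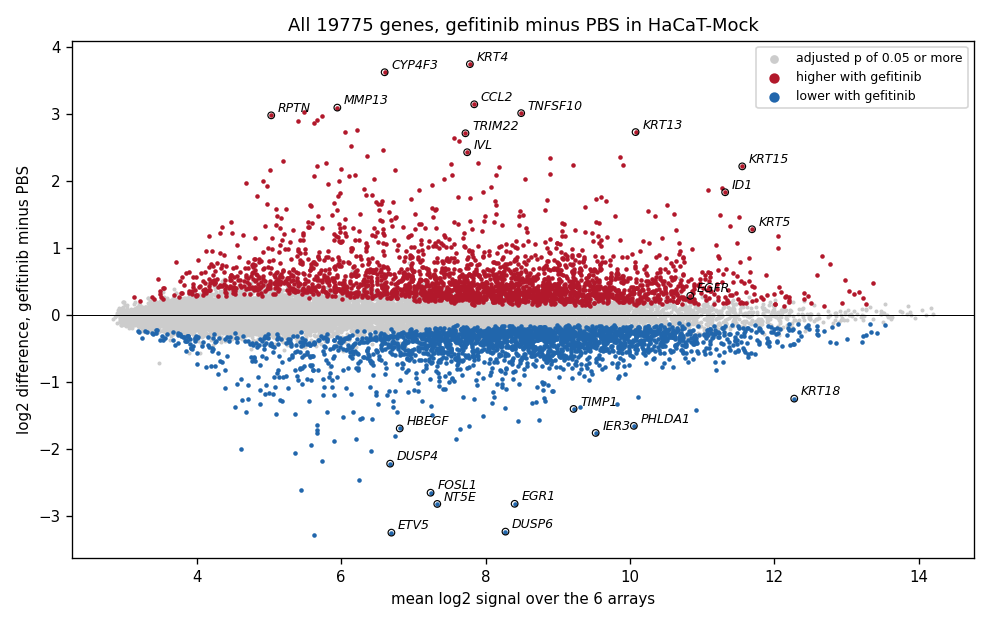
Mean log2 signal over the 6 arrays (x axis) against the log2 difference, gefitinib minus PBS (y axis), for 19775 genes, with the 2454 higher genes in red and the 2314 lower ones in blue. Rises of more than 3 include the keratin KRT4 and the chemokine CCL2, and falls of more than 3 include ETV5 and DUSP6, while EGFR lies close to 0.

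Targets and brakes of the ERK cascade were among the genes that fell most. DUSP6, the phosphatase that dephosphorylates ERK and is itself induced by it, had log2 signals of 7.23, 5.95 and 6.64 on the gefitinib arrays and 10.18, 10.16 and 9.49 on the PBS arrays. The groups lay far apart, and the fitted fall was 3.24 ± 0.21 (SE, adjusted p = 2.2e-17), or 9.42-fold. ETV5, an ETS transcription factor induced by ERK, stood at 5.31, 5.15 and 4.73 with gefitinib and at 8.30, 8.22 and 8.47 with PBS, a fall of 3.25 ± 0.23 (adjusted p = 2.5e-16). EGR1, a zinc finger factor of the immediate early response, had 7.47, 6.52 and 6.80 with gefitinib and 10.48, 10.32 and 8.83 with PBS. The batch E array was the lowest of each group for EGR1, and the difference was -2.93 within batch J and -2.31 within batch E (fitted fall 2.82 ± 0.16, adjusted p = 1.3e-19). FOSL1, an AP-1 subunit, was even across arrays, at 5.98, 5.87 and 6.07 with gefitinib and 8.43, 8.55 and 8.52 with PBS, and fell by 2.66 ± 0.24.

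Read by role, 4 of 11 MAP kinase phosphatases fell and 1 rose. Each list count against PBS is to be read beside the 12.4% of all genes that rose and the 11.7% that fell. DUSP4 (down 2.22), DUSP5 (down 1.13) and DUSP7 (down 1.11) fell with DUSP6, and DUSP10, which acts mainly on p38 and JNK, rose by 0.81. Of 11 feedback inhibitors of receptor and RAS signaling, 6 fell and 1 rose, with a median of -0.87 against 0.00469 for all genes. Those that fell were the Sprouty genes SPRY1, SPRY2 and SPRY4, the related SPRED1 and SPRED2, and ERRFI1, which binds and inhibits the EGFR kinase itself and fell by 1.03. ERRFI1 was low on both batch E arrays (7.33 with gefitinib, 8.34 with PBS), so its groups overlapped. The one that rose was CBLB (0.78 ± 0.10), a ubiquitin ligase that marks active receptors for degradation. Among 13 ETS, EGR and immediate early genes 9 fell and none rose, EGR3 by 1.94, IER3 by 1.76, ETV4 by 1.38 and MYC by 0.77, the last with overlapping groups. The 9 AP-1 subunits split: FOSL1 and FOS fell, whereas JUND (0.62), FOSL2 (0.65) and ATF3 (1.40) rose. ATF3 was uneven over the batches, with 9.19, 7.58 and 9.27 on the gefitinib arrays and 7.82, 7.68 and 6.34 on the PBS arrays, so that the groups overlapped. Of 12 other ERK-induced genes, 8 fell and 1 rose, led by NT5E, the ecto-enzyme that makes adenosine from AMP (down 2.82), and PHLDA1 (down 1.66).

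**Figure D2:**
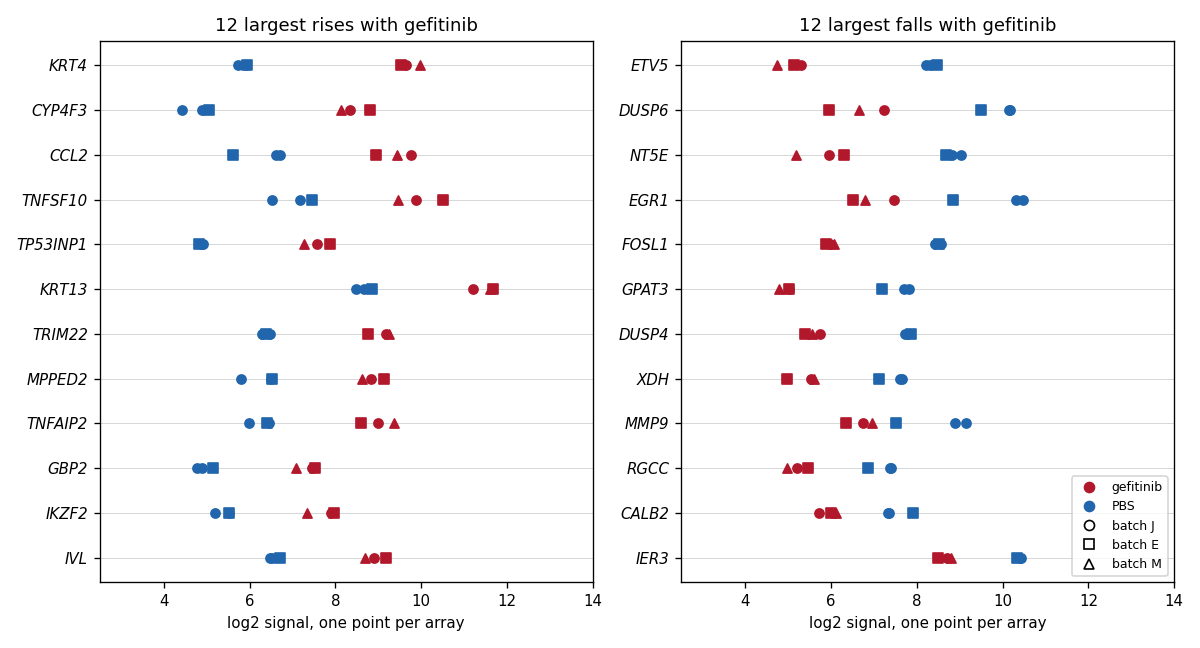
Log2 signal (x axis, 1 point per array, shape by batch) of the 12 largest rises and 12 largest falls with gefitinib among genes no dimmer than the median gene, gefitinib in red and PBS in blue. No gefitinib array overlaps a PBS array, which the rule for choosing these genes required.

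Called receptors of the EGFR family rose, and more of its ligands fell than rose. Of the 4 ERBB receptors 3 were called higher, and of the 8 measured ligands 4 were lower and 2 higher. The ligands AREG and EPGN were not measured. EGFR itself read 11.28, 10.59 and 10.76 on the gefitinib arrays and 10.96, 11.01 and 10.42 on the PBS arrays. Those groups overlapped, and the fitted difference was 0.29 ± 0.10 (adjusted p = 0.0224), or 1.22-fold, against 0.08 with no batch term, which did not pass. The difference was 0.29 within batch J and 0.18 within batch E. The call was lost without the gefitinib array of batch J (0.28) or M (0.23). It was also lost without PBS replicate 1 of batch J (0.28) and without the PBS array of batch E (0.28). EGFR had 9 probe sets, and in a fit of all probe sets with 1 gene symbol only the set used here passed. The next brightest sets, at 0.33 ± 0.17 and 0.21 ± 0.12, did not pass, and dim sets at -0.13 and -0.09 went the other way. ERBB3, the kinase-poor partner that recruits PI3K, was higher without overlap, at 8.63, 9.03 and 8.58 with gefitinib and 8.11, 8.10 and 8.33 with PBS (0.61 ± 0.08, adjusted p = 9.7e-09). ERBB2, the receptor that needs no ligand, rose by 0.41 ± 0.09. ERBB4 was dim on all 6 arrays and its difference of 0.02 ± 0.14 did not pass the test.

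Among the ligands HBEGF, which keratinocytes shed from their surface, fell most, with 5.93, 5.96 and 6.03 on the gefitinib arrays and 7.72, 7.92 and 7.31 on the PBS arrays (down 1.70 ± 0.11, adjusted p = 5.7e-18). TGFA, an autocrine ligand of skin, had 9.28, 8.64 and 8.97 with gefitinib and 9.71, 9.85 and 9.38 with PBS (down 0.60 ± 0.12). NRG1, which binds ERBB3 and ERBB4, fell by 1.38 ± 0.13. EREG fell by 1.34 ± 0.24, although its groups overlapped, at 6.58, 4.91 and 5.68 with gefitinib and 7.86, 7.97 and 6.02 with PBS. The ligands that rose, BTC and NRG4 (both 0.50), were dim genes with means near 4, and their calls were lost with some single arrays left out, when BTC was as low as 0.38 and NRG4 as low as 0.41. EGF (-0.02 ± 0.10) and NRG2 (0.16 ± 0.12) did not pass the test.

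Other growth factor receptors changed less evenly. Of 17 other receptor tyrosine kinases 3 rose and 4 fell, where 12.4% of all genes rose and 11.7% fell. FGFR3 (0.92), FGFR2 (0.51) and IGF1R (0.43) were higher, and ROR1 (-0.79), AXL (-0.74), FGFR4 (-0.40) and EPHB4 (-0.27) were lower. AXL, a receptor known for bypassing EGFR inhibitors in carcinoma cells, had 9.52, 9.33 and 9.62 with gefitinib and 10.20, 10.03 and 10.25 with PBS. TFAP2A, which encodes the transcription factor AP-2alpha at the center of the study, was 10.09, 9.94 and 9.96 with gefitinib and 9.70, 9.65 and 9.67 with PBS. That is a rise of 0.37 ± 0.06 (adjusted p = 8.5e-07) with no overlap, and it was the only call among 5 AP-2 family genes. Of the AP-2alpha targets that the study singled out on these arrays, 4 of 5 of the rising group were higher and all 4 of the falling group lower, which is not independent evidence of direction because they were chosen on the same samples. With no batch term 1 of the 5 was called higher and 3 of the 4 lower.

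Keratinocyte differentiation genes were among the largest rises, but only part of that program moved. In bulk RNA, a larger number of cells of a type and more RNA per cell cannot be told apart. KRT4, a keratin of the upper layers of mucosal epithelium, had 9.64, 9.52 and 9.96 on the gefitinib arrays and 5.73, 5.92 and 5.94 on the PBS arrays. It rose by 3.75 ± 0.31 (adjusted p = 2.9e-14), or 13.4-fold, the largest rise of the genes at or above the median level. KRT13, its usual partner, rose by 2.73 ± 0.31. KRT1, an early keratin of the epidermal spinous layer, stood at 7.02 in batch J and 8.62 in batch E with gefitinib, the batch M array being the lowest of the 3, and at 5.03, 5.04 and 5.44 with PBS (2.37 ± 0.25). Its epidermal partner KRT10 rose by only 0.21. In all, 5 of 14 suprabasal genes rose and 1 fell.

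Of 19 cornified envelope genes, which build the outer shell of the dying keratinocyte, 4 rose and none fell. Over all genes 12.4% rose and 11.7% fell. RPTN, repetin, read 6.48, 6.80 and 6.30 with gefitinib and 3.60, 3.43 and 3.57 with PBS, a rise of 2.98 ± 0.20 (adjusted p = 3.9e-17). IVL, involucrin, an early envelope precursor, had 8.90, 9.17 and 8.70 with gefitinib and 6.47, 6.53 and 6.70 with PBS (2.43 ± 0.18). The crosslinking enzyme TGM1 rose by 1.65 and the scaffold PPL by 0.48. Among those that did not pass the test were LORICRIN (0.19), FLG (-0.29) and SPRR1B (0.01).

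Basal keratins rose too. KRT15 had 12.54, 12.91 and 12.62 with gefitinib and 10.33, 10.25 and 10.69 with PBS (2.22 ± 0.18), and KRT5 had 12.19, 12.32 and 12.98 with gefitinib and 10.89, 10.89 and 10.88 with PBS (1.28 ± 0.16). The basal adhesion genes in the same list went the other way: CD44, ITGA3, ITGA6, DST and LAMB3 fell by 0.33 to 0.82. KRT18, a keratin of simple epithelia, fell to 11.67, 11.54 and 11.83 with gefitinib, against 12.85, 12.83 and 12.93 with PBS (down 1.25 ± 0.07, adjusted p = 3.8e-21).

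Cell contact genes rose widely, 16 of 19 junction and desmosome genes with none lower and a median of 0.56. The desmosomal cadherin DSG3 rose by 1.17, the plakophilin PKP1 by 1.11 and the claudin CLDN8 by 1.92, whereas CLDN4 did not pass the test (-0.23). The intermediate filament VIM, a mesenchymal marker, was lower at 6.32, 6.13 and 6.06 with gefitinib against 7.41, 7.39 and 7.18 with PBS (down 1.14 ± 0.12). Of 17 differentiation transcription factors 7 rose, first of all ELF3, an epithelial ETS factor, with 10.13 or more on every gefitinib array and 8.26 or less on every PBS array (2.24 ± 0.19). The grainyhead factors GRHL1, GRHL2 and GRHL3, GATA3, KLF5 and EHF rose by 0.28 to 0.61. KLF4 (0.05) and ZNF750 (0.25) did not pass the test. With no batch term 3 of the 17 were called and with batch J alone 1, a fit with 1 gefitinib and 2 PBS arrays of this line. NOTCH1, a receptor that starts spinous differentiation, rose by 0.93 ± 0.10, and its target HES1 by 0.53, while HEY1 fell by 0.97. The 8 keratinocyte markers all rose with these groups, with a median of 0.575 and a summed linear signal of 41100, 37600 and 49100 on the gefitinib arrays and 30000, 29200 and 23800 on the PBS arrays. The markers include KRT5, already given above, so they are not fully separate from these groups. With batch J alone 3 of the 8 passed, and their part in the results was not tested.

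**Figure D3:**
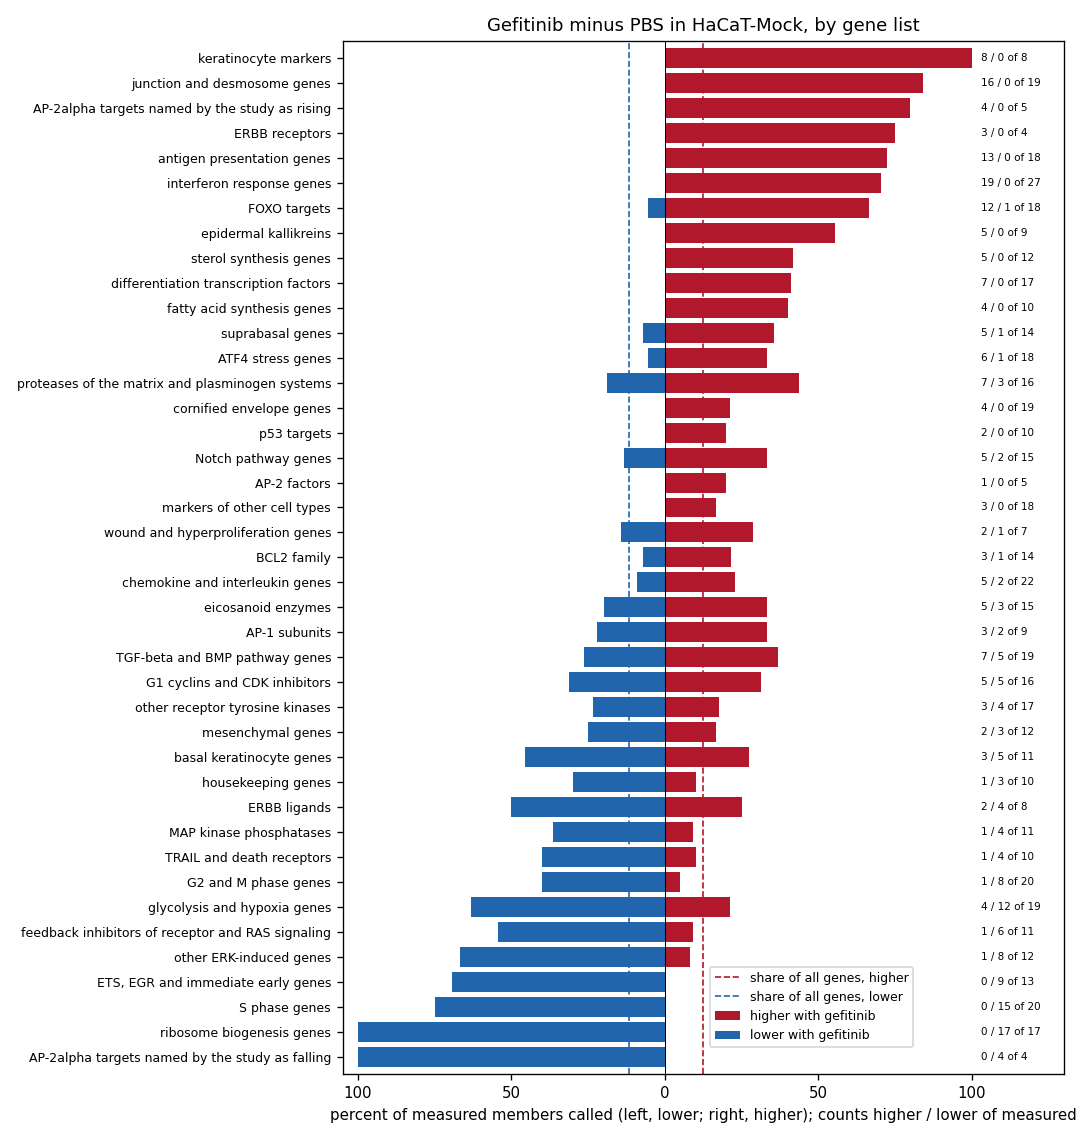
Percent of measured members of each of 41 gene lists that were called higher (red, right) or lower (blue, left) with gefitinib than with PBS, with counts at the right and the shares over all genes (12.4% and 11.7%) as dashed lines. Interferon, antigen presentation and junction lists lie toward the top, and S phase and ribosome biogenesis lists toward the bottom.

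Interferon-stimulated genes, which cells use against viruses, rose widely. Of 27 measured, 19 rose and none fell, with a median of 0.64. TRIM22, an antiviral ubiquitin ligase, had 9.19, 8.75 and 9.25 on the gefitinib arrays and 6.47, 6.29 and 6.37 on the PBS arrays (2.71 ± 0.28, adjusted p = 4.2e-11). MX1, a GTPase that blocks viral replication, stood at 7.24, 6.86 and 7.61 with gefitinib and 5.59, 5.24 and 5.50 with PBS (1.79 ± 0.19). IRF9, the DNA-binding subunit of the interferon-activated complex ISGF3, had 8.95, 8.67 and 9.41 with gefitinib and 7.34, 7.02 and 7.44 with PBS (1.65 ± 0.18). IRF1 rose by 1.48 ± 0.16, XAF1 by 2.08, OAS1 by 1.58, RSAD2 by 1.64 and IFIT3 by 1.63. Among those that did not pass the test were ISG20 (-0.07), HERC5 (-0.05), OASL (0.09) and MX2 (0.30). For TRIM22, IRF9, RSAD2 and IFIT3 the batch E array was the lowest of the 3 gefitinib arrays, yet above every PBS array.

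The antigen presentation genes followed, 13 of 18 higher and none lower with a median of 0.55. PSMB9, an immunoproteasome subunit, had 10.16, 10.30 and 10.24 with gefitinib and 8.77, 8.69 and 9.01 with PBS (1.39 ± 0.15), and ERAP2, which trims peptides for class I molecules, rose by 1.20. HLA-B, HLA-C, HLA-E and HLA-F rose by 0.43 to 0.60. Probe sets of HLA genes can share sequence, so these genes are not fully separate measurements. The class II regulator CIITA (-0.09) and HLA-DRA (0.08) did not pass the test. GBP2, an interferon-induced GTPase outside both lists, was among the 12 largest rises of genes no dimmer than the median gene (2.53 ± 0.23).

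For some of these genes the sequence before the start site is shown, because 13 of the 21 interferon response genes with a promoter on hand hold the core of the interferon-stimulated response element (GAAA, then 2 bases of any kind, then GAAA) on either strand, in the 250 bases before the start. The core is present in 3.07% of all 27305 RefSeq promoters (GRCh38.p14) over the same window, in 2.48% of those of the genes tested here, in 3.79% of promoters of genes higher with gefitinib and in 1.88% of those lower. Within the list it was found in 8 of 15 genes that rose, so that genes with it did and did not rise. The stretches, of 100 bases, belong to members of the interferon and antigen presentation lists with a match that were among those that rose most, and capitals mark the core. They lie at chr10:89327830-89327929 (IFIT3, + strand), chr1:27672231-27672330 (IFI6, - strand), chr10:89392475-89392574 (IFIT1, + strand) and chr6:33314079-33314178 (TAPBP, - strand), all before the annotated start of the gene.
IFIT3: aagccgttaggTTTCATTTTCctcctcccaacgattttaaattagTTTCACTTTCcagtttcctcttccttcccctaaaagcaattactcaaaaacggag
IFI6: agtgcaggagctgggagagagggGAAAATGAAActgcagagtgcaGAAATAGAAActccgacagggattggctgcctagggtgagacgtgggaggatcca
IFIT1: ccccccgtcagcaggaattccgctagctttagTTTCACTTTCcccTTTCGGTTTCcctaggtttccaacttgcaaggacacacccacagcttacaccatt
TAPBP: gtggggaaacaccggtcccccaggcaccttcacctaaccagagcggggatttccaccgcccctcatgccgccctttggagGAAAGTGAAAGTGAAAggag
IFIT3, IFIT1 and IFI6 each show 2 separate copies (IFI6 has 3 in the window), and the 2 matches of TAPBP, which loads peptides onto class I molecules, overlap. IFIT3 read 11.58, 10.85 and 11.56 with gefitinib and 9.80, 9.85 and 9.42 with PBS. A match describes the letters of the window and was not tested as a site.

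Chemokines and cytokines divided. CCL2, which attracts monocytes, had 9.75, 8.94 and 9.43 on the gefitinib arrays and 6.62, 6.71 and 5.60 on the PBS arrays, a rise of 3.15 ± 0.44 (adjusted p = 1.1e-07). CCL5 rose by 1.00, CXCL16 by 0.59, CXCL11 by 0.54 and the interleukin-1 antagonist IL1RN by 0.43. IL1A fell by 1.66 ± 0.23 and IL1B by 1.57 ± 0.12. CXCL8 (-0.45) and IL6 (-0.12) did not pass the test. Altogether 5 of 22 rose and 2 fell, where 12.4% of all genes rose and 11.7% fell.

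TNFSF10, which encodes the death ligand TRAIL, rose by 3.01 ± 0.22 (adjusted p = 4.0e-16), with 9.88, 10.50 and 9.46 on the gefitinib arrays and 7.17, 6.51 and 7.45 on the PBS arrays. Its death receptors TNFRSF10A and TNFRSF10B fell by 0.95 and 0.70, and the adaptor FADD by 0.50. Of 14 BCL2 family genes 3 rose and 1 fell, beside 12.4% and 11.7% of all genes. BCL2L11, which encodes the killer protein BIM that ERK holds down, had 8.43, 8.86 and 8.29 with gefitinib and 7.77, 7.62 and 8.07 with PBS (0.78 ± 0.08), and HRK rose by 0.86. In the fit of all probe sets, the next brightest set of BCL2L11, at 0.07 ± 0.09, did not pass. Of the other BCL2L11 sets only a dimmer one passed, at 0.64 ± 0.14. BAX passed the threshold narrowly (-0.36 ± 0.14, adjusted p = 0.0478), its groups overlapped, and within batch E its difference was 0.13. Its call was lost without the gefitinib array of batch J (-0.27) or M (-0.30) and without either PBS array of batch J (-0.24 and -0.36).

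Genes that FOXO factors switch on when AKT is off rose in 12 of 18 cases, and 1 fell, with a median of 0.65. TXNIP, which restrains glucose uptake, had 10.42, 10.64 and 10.43 with gefitinib and 8.48, 8.31 and 9.35 with PBS (1.76 ± 0.19). FBXO32, a ubiquitin ligase of muscle atrophy, read 7.51, 7.23 and 7.51 with gefitinib and 6.09, 5.74 and 5.87 with PBS (1.54 ± 0.17). PIK3IP1, an inhibitor of PI3K, rose by 1.30, CCNG2 by 1.00 and the cell cycle brake CDKN1B by 0.63, while IRS2 fell by 0.53.

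Growth and division genes fell by less, but many together. All 17 measured ribosome biogenesis genes fell, by 0.27 to 0.94, with a median of -0.60. NOP16, a nucleolar protein of the large subunit, had 9.28, 9.61 and 9.17 with gefitinib and 10.24, 10.25 and 10.45 with PBS (down 0.94 ± 0.09, adjusted p = 9.2e-12), and nucleolin, NCL, fell by 0.44. Of 20 S phase genes 15 fell and none rose, with a median of -0.325. CDC45, a subunit of the replicative helicase, had 8.39, 8.45 and 8.53 with gefitinib and 8.82, 8.83 and 8.87 with PBS (down 0.42 ± 0.06), a difference small in size but with tight groups. Of 20 G2 and M phase genes 8 fell and NUSAP1 rose (0.18). A fit of the 6 arrays alone with no batch term called 0 of the 20 lower, and batch J alone called 4 of the 20 S phase genes. AURKA, a kinase of the mitotic spindle, fell by 0.56 ± 0.12 with overlapping groups: its gefitinib arrays read 10.31, 10.98 and 9.91 and its PBS arrays 11.01, 10.92 and 11.29. MKI67, the proliferation antigen, did not pass the test (-0.25). CDKN2B, the CDK inhibitor p15, rose to 9.49, 9.03 and 9.15 with gefitinib, against 7.38, 7.03 and 7.06 with PBS (2.21 ± 0.25), and the cyclins CCND3 and CCNE1 fell by 0.51 and 0.43.

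The S phase list is the second whose promoters hold a shared motif often, a loose form of the E2F core (TTTNNCGC, N being any base). On either strand it was in 10 of 17 members against 5.93% of all promoters and 7.46% of those of genes tested. Capitals mark the core in members that hold it and were among the holders that fell most. FEN1 (-0.53) and CDC6 (-0.49) fell more but had no match or no promoter on hand, so they are not shown. The stretches are chr19:4909401-4909500 (UHRF1, + strand), chr14:49688242-49688341 (POLE2, - strand) and chr16:85688955-85689054 (GINS2, - strand).
UHRF1: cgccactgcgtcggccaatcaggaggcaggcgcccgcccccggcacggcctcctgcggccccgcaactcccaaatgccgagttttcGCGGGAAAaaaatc
POLE2: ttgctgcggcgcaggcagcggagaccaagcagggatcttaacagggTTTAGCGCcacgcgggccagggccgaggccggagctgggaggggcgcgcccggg
GINS2: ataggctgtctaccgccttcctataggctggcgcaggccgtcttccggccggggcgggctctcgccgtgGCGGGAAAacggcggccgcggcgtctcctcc
UHRF1, which copies DNA methylation at replication, fell by 0.48, POLE2, a DNA polymerase epsilon subunit, by 0.41 and GINS2, a helicase subunit, by 0.34. The core was in 8 of the 14 members that fell and had a promoter on hand. Over all genes it was in 9.16% of promoters of genes that fell and in 7.84% of those of genes that rose, against the 7.46% of genes tested.

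Another set shows TGANTCA, a pattern that includes the AP-1 element known from the involucrin promoter and leaves its middle base free. It was held by 9 of 15 cornified envelope promoters against 6.60% of all and 5.03% of those of genes tested. RPTN lies at chr1:152159271-152159370 (- strand) and IVL at chr1:152908376-152908475 (+ strand), both in the epidermal differentiation complex.
RPTN: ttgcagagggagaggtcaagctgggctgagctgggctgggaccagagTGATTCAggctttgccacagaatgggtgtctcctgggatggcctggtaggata
IVL: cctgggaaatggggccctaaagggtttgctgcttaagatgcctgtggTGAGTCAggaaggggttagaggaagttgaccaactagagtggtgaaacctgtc
Of the 9 genes with the pattern these 2 rose.

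Metabolic genes changed too. Of 19 glycolysis and hypoxia genes 12 fell and 4 rose. HK2, the hexokinase that starts glycolysis, had 7.98, 8.24 and 7.77 with gefitinib and 9.29, 9.28 and 9.62 with PBS (down 1.30 ± 0.12), and BNIP3 fell by 1.32 and VEGFA by 0.87. ADM, adrenomedullin, also a hypoxia gene, rose by 0.75 ± 0.07. Lipid synthesis genes rose in part: 5 of 12 sterol genes, with INSIG1 at 0.69 and LSS at 0.68, and 4 of 10 fatty acid genes, with the regulator SREBF1 at 0.94. With batch J alone 2 of the 12 sterol genes were called, and 1 with no batch term. Among eicosanoid enzymes CYP4F3, which breaks down leukotriene B4, had 8.33, 8.80 and 8.12 with gefitinib and 4.88, 4.42 and 5.05 with PBS (3.62 ± 0.29). CYP4F2 (1.12) and CYP4F12 (1.28) rose as well, and near-identical sequence in the CYP4F family can let their probe sets share signal. HPGD, which inactivates prostaglandins, rose by 2.16.

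Secreted proteases and BMP targets held further large changes. The collagenase MMP13 had 7.33, 8.15 and 6.90 with gefitinib and 4.18, 4.19 and 4.93 with PBS (3.10 ± 0.21), while the gelatinase MMP9 fell by 1.85 and the inhibitors SERPINE2 and TIMP1 by 1.51 and 1.40. Of 9 epidermal kallikreins, proteases that shed the stratum corneum, 5 rose, beside 12.4% of all genes. With batch J alone or with no batch term 2 were called higher. KLK5 read 9.47, 9.59 and 10.89 with gefitinib and 8.91, 8.84 and 9.04 with PBS, with the batch M array well above the other gefitinib arrays. ID1, ID2 and ID3, inhibitors of basic helix-loop-helix factors and direct targets of BMP signaling, rose by 1.83, 1.72 and 1.56. In the wider TGF-beta and BMP list 7 of 19 genes rose and 5 fell, beside 12.4% and 11.7% of all genes. The pseudoreceptor BAMBI rose by 1.00 and the receptor TGFBR3 fell by 0.83. Of 10 p53 targets TP53INP1 (2.76 ± 0.24) and CDKN1A (0.39) rose, a share near the 12.4% of all genes. TP53INP1, a stress-induced regulator of autophagy, read 7.58, 7.87 and 7.27 with gefitinib and 4.86, 4.92 and 4.82 with PBS.

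Further genes among the largest changes belong to no list above. MPPED2, a metallophosphoesterase, had 8.82, 9.12 and 8.62 on the gefitinib arrays and 6.50, 5.80 and 6.51 on the PBS arrays (2.64 ± 0.17). TNFAIP2, a TNF-induced gene, rose by 2.59 ± 0.25 and IKZF2, the zinc finger factor Helios of lymphocytes, by 2.46 ± 0.21. GPAT3, an acyltransferase of triglyceride synthesis, fell to 5.01, 5.02 and 4.79 with gefitinib, against 7.70, 7.82 and 7.18 with PBS (down 2.46 ± 0.18). XDH, xanthine dehydrogenase of purine breakdown, fell by 2.03 ± 0.13. RGCC, a regulator of the cell cycle, fell by 1.85 ± 0.25 and the calcium binder CALB2, calretinin, fell by 1.80 ± 0.19. All of these had gefitinib and PBS arrays that did not overlap, as the rule for naming them required.

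The remaining lists were mixed or had few calls, beside 12.4% of all genes higher and 11.7% lower. Of 7 wound and hyperproliferation genes LCN2, an iron-binding defense protein, rose by 1.56 and KRT16 by 0.90, and the elastase inhibitor PI3 fell by 1.45. Of 18 ATF4 stress genes 6 rose and 1 fell, all by less than 1: the stress factor NUPR1 rose by 0.68 and the serine synthesis enzyme PHGDH by 0.61. With batch J alone 0 of these 18 were called higher, and 2 with no batch term. Of 12 mesenchymal genes VIM, CDH2 and FN1 fell and SPARC (0.84) and COL5A1 (0.59) rose. Of 18 markers of other cell types VWF (0.88), COL3A1 (0.78) and CDH5 (0.75) rose, each at a level below the median gene on every array. Among 10 housekeeping genes ACTB (0.00 ± 0.06) and GAPDH (-0.04 ± 0.06) did not pass the test, TBP, HPRT1 and PPIA fell by 0.14 to 0.30, and B2M, the light chain of class I molecules, rose by 0.31 ± 0.10.

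The other EGFR inhibitors given to the same line set the gefitinib values in context. Cetuximab, an antibody that covers the ligand-binding domain from outside, was used at the same 100 nM and had 1 array in each of batches J, E and M, as gefitinib did. Directly compared, 51 genes were higher with gefitinib than with cetuximab (0.258%) and 11 were lower (0.0556%), and 1471 had an unadjusted p under 0.05. Only this 1 pair of inhibitors was compared by a test. Leaving out any 1 of these 6 arrays left between 7 (without the batch E gefitinib array) and 40 (without the batch E cetuximab array) genes called, and 5 genes were called in all 6 such fits: RPTN, MMP13, ADM, CAMK2N1 and KRT18. Of the 12 largest rises and 12 largest falls against PBS among genes no dimmer than the median gene, only TNFSF10 was called between the drugs. Among dimmer genes with large rises, MMP13 and RPTN were called too. For 8 of these 24 genes the 95% interval of the difference held 0. CCL2 differed by 0.08 (95% interval -0.81 to 0.96) and MMP9 by -0.01 (-0.38 to 0.35). For KRT4 the difference was 0.90 (0.29 to 1.51) and for DUSP6 -0.53 (-0.96 to -0.11), neither past the adjusted threshold. A gene that misses the threshold is not thereby shown to respond alike to both.

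RPTN showed the largest difference, with 6.48, 6.80 and 6.30 on the gefitinib arrays and 4.82, 4.81 and 4.33 on the cetuximab arrays (1.87 ± 0.20, adjusted p = 1.5e-08). Next came MMP13 (1.40 ± 0.21) and MMP10 (1.22 ± 0.27), both highest in batch E under either drug, so that the groups overlapped while each batch kept the same order. MMP10, the protease stromelysin 2, had 6.84, 8.40 and 6.30 with gefitinib and 5.77, 7.47 and 4.64 with cetuximab. TNFSF10 was 0.88 ± 0.21 higher with gefitinib (adjusted p = 0.0463). AHNAK2 (0.70 ± 0.14), FBXO32 (0.70 ± 0.17) and NANOS1 (0.72 ± 0.14) were higher as well. In the 6 fits with 1 array left out, MMP10, AHNAK2 and NANOS1 were called in 2, and TNFSF10 and FBXO32 in 1.

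Of the 18 FOXO targets 5 were higher with gefitinib than with cetuximab, against the 0.258% of all genes, and none was lower. They were FBXO32, SESN3 (0.90), YPEL3 (0.62), PNRC1 (0.42) and BCL6 (0.38). With 1 of the 6 arrays left out, 0 or 1 of the 18 passed, at a median difference of 0.261 to 0.322. PNRC1, a nuclear receptor coactivator, had 8.31, 8.49 and 8.53 with gefitinib and 7.96, 8.01 and 8.12 with cetuximab. None of the 27 interferon genes differed, with a median difference of 0.00789, and none of the listed MAP kinase phosphatases did, with a median of -0.0513. Lower with gefitinib were KRT18 (-0.39 ± 0.06, adjusted p = 0.000971), with 11.67, 11.54 and 11.83 against 11.95, 12.03 and 12.22 for cetuximab, and NRG1 (-0.55 ± 0.13). CLDN4 (-0.39), the organic anion transporter SLCO4A1 (-0.47) and the replication licensing factor CDC6 (-0.34) were also lower. In the 6 fits with 1 array left out, NRG1 was called in 1, and CLDN4, SLCO4A1 and CDC6 in 0.

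**Figure D4:**
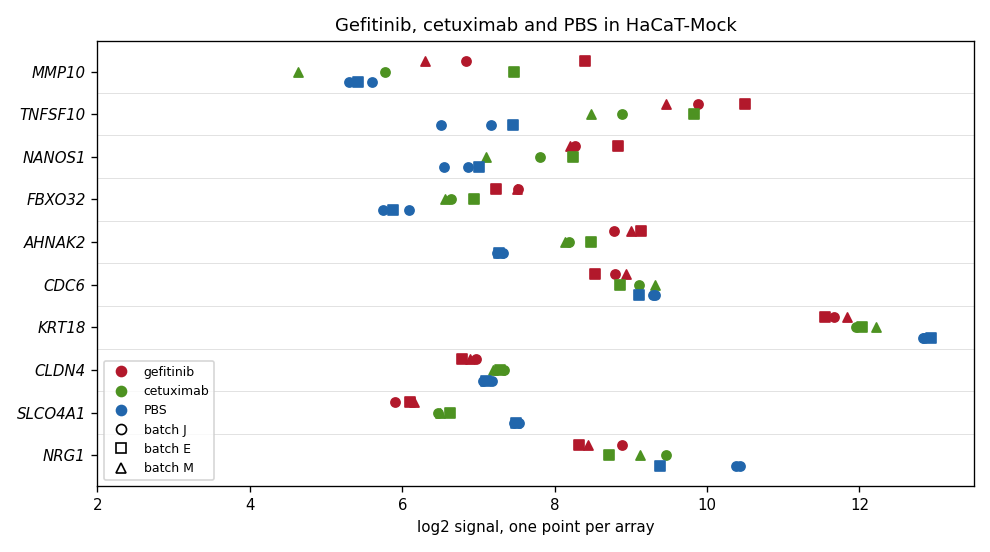
Log2 signal (x axis, 1 point per array, shape by batch) with gefitinib (red), cetuximab (green) and PBS (blue) for the 5 largest differences in each direction between the drugs among genes no dimmer than the median gene. For MMP10 and TNFSF10 the drugs overlap across batches, while KRT18 shows gefitinib below cetuximab and both below PBS.

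Afatinib, a covalent inhibitor of the same kinase pocket, was used at 10 nM, so doses differ and no comparison was made. Side by side, against the same PBS arrays, the differences were 3.75 for gefitinib and 3.98 for afatinib in KRT4, -3.24 for gefitinib and -2.63 for afatinib in DUSP6, and 1.54 for gefitinib and 2.13 for afatinib in FBXO32. RGCC fell by 1.85 with gefitinib and by 0.65 with afatinib. Silencing EGFR by siRNA against scramble siRNA, a contrast that shares no array with gefitinib against PBS, lowered EGFR by 2.11. Of the 2454 genes higher with gefitinib 503 were called higher (20.5%) and 75 lower after the siRNA. Of the 2314 lower genes 558 were called lower (24.1%) and 74 higher. The siRNA contrast called 1078 genes higher and 1060 lower over all genes, of which the shared genes made up 46.7% and 52.6%.

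The response was then set against that of HaCaT-EGFR (3 gefitinib and 2 PBS arrays) and HaCaT-PIK3CA (2 gefitinib and 3 PBS arrays). The difference between lines was tested for each gene. It passed for 9 genes against HaCaT-EGFR (0.0455%, with 1354 at an unadjusted p under 0.05) and for 5 against HaCaT-PIK3CA (0.0253%, with 927 at an unadjusted p under 0.05). Leaving out 1 array left 3 to 9 genes called against HaCaT-EGFR and 3 to 8 against HaCaT-PIK3CA. All are named here. Those at or above the median level follow the rule for named genes, and the others were named after their values were seen.

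Against HaCaT-EGFR, the differences were largest for CXCL9, CXCL10 and CXCL11, chemokines induced by interferon gamma that draw T cells. IDO1, an enzyme that breaks down tryptophan, also passed, with the highest adjusted p of the 9 genes (0.0421). CXCL9 had 4.99, 4.97 and 4.93 with gefitinib and 4.16, 4.67 and 4.61 with PBS in HaCaT-Mock, and 4.68, 4.53 and 4.62 with gefitinib and 6.58 and 6.32 with PBS in HaCaT-EGFR. The HaCaT-EGFR PBS arrays stood above all others, and with gefitinib that line lay within the range of the HaCaT-Mock arrays. The difference of the responses was 2.33 ± 0.23 (adjusted p = 9.9e-10). For CXCL10 it was 2.17 ± 0.29, for CXCL11 1.94 ± 0.24 and for IDO1 1.02 ± 0.22. These genes were dim in HaCaT-Mock, with means of 3.46 to 5.62. FUCA2 (1.07) and HMGCS1 (0.86) also differed upward, and THEM6 (-0.62), ADM (-0.60) and KLF13 (-0.45) downward. CXCL9, CXCL10 and CXCL11 were called in each of the 11 fits with 1 array left out, IDO1 in 3 of them, ADM in 8, KLF13 in 7, FUCA2 and HMGCS1 in 4 each and THEM6 in 2. ADM rose in both lines, by 0.75 in HaCaT-Mock and 1.35 in HaCaT-EGFR.

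Against HaCaT-PIK3CA, the 5 genes were the cornified envelope gene RPTN, the matrix proteases MMP13 and MMP10, KRT18 and TRAV8-3. RPTN was the 1 gene called of 19 in the cornified envelope list. RPTN rose by 2.98 in HaCaT-Mock and by 0.75 in HaCaT-PIK3CA, where its arrays read 3.99 and 4.69 with gefitinib and 3.73, 3.44 and 3.59 with PBS (difference of responses 2.23 ± 0.30, adjusted p = 1.7e-05). MMP13 rose by 3.10 in HaCaT-Mock and 0.90 in HaCaT-PIK3CA (2.19 ± 0.32). MMP10 rose by 1.88 in HaCaT-Mock, and in HaCaT-PIK3CA the value was -0.76, which did not pass the test (difference of responses 2.65 ± 0.41). KRT18 fell by 1.25 in HaCaT-Mock and by 0.73 in HaCaT-PIK3CA (-0.52 ± 0.10, adjusted p = 0.00856). The fifth was the T cell receptor segment TRAV8-3 (0.84 ± 0.17), a dim signal near 4 on every array. RPTN, MMP13 and MMP10 were called in each of the 11 fits with 1 array left out, KRT18 in 7 and TRAV8-3 in 3. None of the 27 interferon response genes was called different from either line, beside 0.0455% of all genes for HaCaT-EGFR and 0.0253% for HaCaT-PIK3CA.

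**Figure D5:**
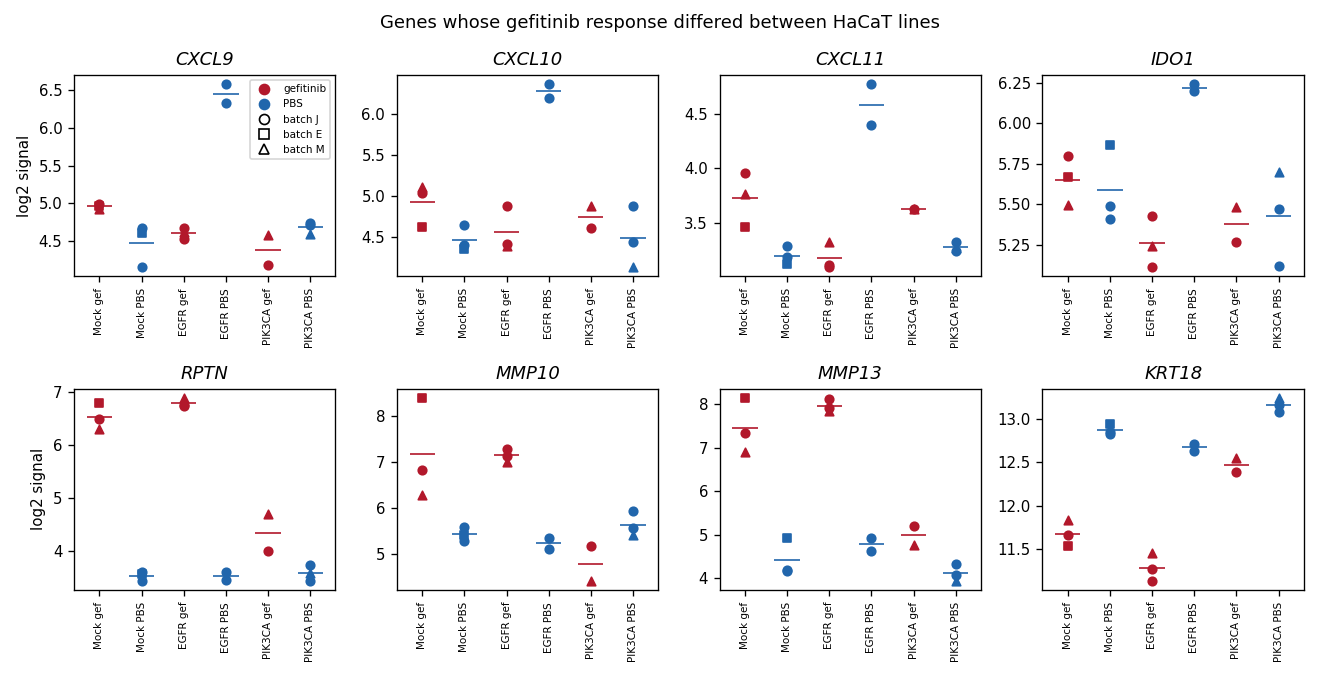
Log2 signal (y axis, 1 point per array, shape by batch, bars at group means) with gefitinib (red) and PBS (blue) in HaCaT-Mock, HaCaT-EGFR and HaCaT-PIK3CA for 8 genes whose response differed between lines. CXCL9, CXCL10, CXCL11 and IDO1 are highest on the HaCaT-EGFR PBS arrays, and RPTN, MMP10 and MMP13 are high with gefitinib in HaCaT-Mock and HaCaT-EGFR.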

How the data were processed

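Total RNA of HaCaT cells was hybridized to Affymetrix U133 Plus 2.0 arrays. The deposited values are log2 probe set signals, made by the authors with affy per the submitters' processing notes. The study's methods describe frozen robust multiarray analysis, a surrogate variable correction for batch and a step that dropped arrays lying apart from replicates. No source used here says which steps were applied to the deposited table, and a correction made before deposit would affect the spread between batches. The values run from 2.65 to 14.5, and the number of arrays, not a read depth, limits the precision. The labels name 2 labelling kits without saying which array had which.

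Of 54675 probe sets, 41091 carried 1 gene symbol, 1801 several and 11721 none, and 62 were controls. Probe sets with several genes were left out, and 1 probe set was taken per gene, giving 19775 genes, of which 10523 had more than 1. Of 243 other probe sets of the called named genes, 212 had the same sign, but only 120 were called with that sign. In the opposite direction 0 were called.

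Groups came from the labels. A linear model with group and batch (J, E or M) was fitted to 89 arrays with limma 3.58.1 in R 4.3.3, with empirical Bayes moderation (47 residual and 5.593 prior degrees of freedom) and Benjamini-Hochberg adjustment over all genes. It was tested on simulated data. The text names the 12 largest rises and 12 largest falls among called genes no dimmer than the median gene with no overlap of arrays, the 4 genes per list whose adjusted p was lowest, all ERBB receptors and ligands, and the 5 largest differences in each direction of the other comparisons. Other genes were named after their values were seen. The members and lists were chosen with earlier results of these data known. Replicate numbers were not used to pair the arrays in this model. Alternatives varied the arrays fitted, the batch term, weights, normalization, probe set and filter. Promoter sequences are those of RefSeq on GRCh38.p14.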

Additional observations from a re-analysis of the deposited data

Results flagged for a closer look

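The gefitinib response of HaCaT-Mock differed by an interaction test in limma (adjusted p under 0.05) from that of HaCaT-EGFR for 9 genes. The difference of responses, HaCaT-Mock minus HaCaT-EGFR on the log2 scale, was 2.33 for CXCL9, 2.17 for CXCL10, 1.94 for CXCL11, 1.07 for FUCA2, 1.02 for IDO1 and 0.86 for HMGCS1. It was -0.62 for THEM6, -0.60 for ADM and -0.45 for KLF13. In HaCaT-EGFR the fitted responses to gefitinib were -1.86 for CXCL9, -1.70 for CXCL10, -1.40 for CXCL11 and -0.95 for IDO1, and they rest on 2 PBS arrays of that line.

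From HaCaT-PIK3CA the response differed for 5 genes, by 2.65 for MMP10, 2.23 for RPTN, 2.19 for MMP13, 0.84 for TRAV8-3 and -0.52 for KRT18. This contrast rests on 2 gefitinib arrays of HaCaT-PIK3CA.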

How the results depend on the processing

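The count of 4768 genes called for gefitinib against PBS stayed within 1.5 times under array weights (6673), batch as a random block (4540), genes at or above the median level (4506), only the groups compared (3489), the study's probe set rule (4883) and quantile normalization (4865), and was 3840 to 4158 with 1 array left out. It was 373 with a change of at least 1 required, 1904 with batch J alone, 2672 with no batch term and 1753 with only the 6 arrays and no batch term. Chosen after seeing the data, the fit of the 12 HaCaT-Mock arrays without siRNA gave 5611, and that without HaCaT-HRAS arrays 5220.

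The count of 62 for gefitinib against cetuximab was 1141 with array weights, 35 with batch as a random block, 3 with no batch term and 151 with the 12 arrays. It was 0 in limma with batch J alone (330 at an unadjusted p under 0.05) and 0 with only the groups compared (3520). Without gefitinib replicates 1, 2 and 3 it was 26, 7 and 16, and without cetuximab replicates 1, 2 and 3 it was 9, 40 and 8. The count of 9 against HaCaT-EGFR was 531 with array weights, 4 with batch J alone, 3 with no batch term and 5 with only the groups compared, and 3 to 9 with 1 array left out. The count of 5 against HaCaT-PIK3CA was 41 with array weights, 8 with batch as a random block, 3 with batch J alone, 2 with no batch term, 1 with only the groups compared and 10 under the study's probe set rule, and 3 to 8 with 1 array left out. The cause of these shifts was not tested.

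Deviations from the group means correlated at 0.402 for replicate 1, both arrays of batch J, and at -0.406 for replicate 2, of batches E and J. They correlated at -0.104 for replicate 3, of batches M and E, and at 0.527 for the 2 batch E arrays. Pairing of same-numbered arrays cannot be told apart from batch by these values. With the replicate number as a block, the counts were 4029 against PBS, 65 against cetuximab, 6 against HaCaT-EGFR and 3 against HaCaT-PIK3CA.

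Counts of list members also moved by over 1.5 times in other lists: with batch J alone, 1 ERBB receptor, 1 AP-1 subunit and 2 chemokine genes were called higher and 7 glycolysis genes lower, and with only the 6 arrays and no batch term, 8 junction genes were called higher and 5 glycolysis, 5 immediate early and 1 TGF-beta list gene lower. Calls against PBS also lost with some single arrays left out were those of EHF, GRHL3, FGFR4, NUPR1, TBP and PPIA. Of the called genes named, 2 changed sign: BAX was 0.13 within batch E and BUB1 0.0601 under the study's probe set rule. Among genes not called, EGF ran from -0.101 to 0.0431 with 1 array left out, and TFAP2B was -0.0667 under the probe set rule. ERBB4 was -0.0385 with array weights, -0.13 with batch J alone, -0.0047 without a batch term, whether on all arrays or the 6, -0.0070 with only the groups compared, -0.0528 with the replicate block and -0.0673 to 0.166 with 1 array left out.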

Other observations

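A single HaCaT-Mock array with scramble siRNA and gefitinib can be set beside a single array with scramble siRNA and PBS, both from batch J, with no test. DUSP6 differed by -2.23 and EGR1 by -2.10 on the log2 scale, gefitinib minus PBS, and TNFSF10 by 1.61. KRT4 differed by only 0.26, at 9.42 with gefitinib and 9.16 with PBS, so that it was high on both, and IFIT3 differed by -0.63. Of the 2454 genes higher with gefitinib in cells without siRNA 1409 were higher on the scramble gefitinib array, and of the 2314 lower ones 1232 were lower, while 10563 of all 19775 genes were higher.

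In HaCaT-HRAS, gefitinib against PBS gave 3124 called genes, 21 of which rose and 17 of which fell by at least 1 on the log2 scale. KRT4 differed there by 0.27.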
